A study of Homo sapiens with 14 samples.

Results

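A set of 10 genes of the epithelial cytoskeleton and of cell-cell junctions was followed, chosen by name among the 62703 genes of the count table. They were the keratin genes KRT8, KRT18, KRT19 and KRT7, the cadherin gene CDH1, the claudin genes CLDN3, CLDN4 and CLDN7, and the genes of 2 junction plaque proteins, CTNNB1 and TJP1. The study treated 3 human prostate cancer cell lines with SEL120-34A, which blocks CDK8 and CDK19, kinases of the Mediator complex, and asked how lines that differ in their response to the antiandrogen enzalutamide react to it. LNCaP (enzalutamide sensitive) and 22Rv1 (enzalutamide resistant) each had 3 libraries with 1.5 µM SEL120-34A and 3 with the solvent DMSO, and PC3 (enzalutamide insensitive) had 1 of each. All cells were treated for 3 days, and the labels name no introduced genetic change. The growth text in the labels names 22Rv1 for the samples of all 3 lines, so the lines were taken from the titles and cell line fields, and how LNCaP and PC3 were grown is not given there. RNA was counted by BRB-seq, which tags the 3′ ends of transcripts in pooled, barcoded samples.

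Simple epithelia build their intermediate filaments from a type II keratin (KRT8, KRT7) paired with a type I keratin (KRT18, KRT19), and luminal prostate cells are known for the KRT8 and KRT18 pair. E-cadherin, the product of CDH1, joins neighbouring cells at adherens junctions, where beta-catenin (CTNNB1) binds its tail and, away from the membrane, also acts as a Wnt pathway co-activator. Claudins form the strands of tight junctions, and TJP1 (ZO-1) ties those strands to the actin cytoskeleton.

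Total counts ranged from 246063 to 909176 per library, and in both replicated lines the SEL120-34A group reached lower totals (291056 to 519928 in LNCaP and 246063 to 368778 in 22Rv1) than its DMSO group (412881 to 759548 and 476455 to 777207). The share of counts from mitochondrial genes moved with treatment as well, from 13.9 to 17.3% in LNCaP DMSO against 16.5 to 23.3% with SEL120-34A, and from 7.60 to 9.82% against 9.52 to 13.1% in 22Rv1. The epithelial marker EPCAM was present in every library, at 136 to 543.6 CPM (read counts scaled to a common library size). The 6 leukocyte markers summed to at most 7.01 CPM in any library, and the 7 fibroblast markers to at most 35.9 CPM in LNCaP and 22Rv1 and to 98.0 and 87.7 CPM in PC3. The 8 basal prostate markers summed to 0 to 21.7 CPM in LNCaP and 22Rv1 and to 512 and 610.2 CPM in PC3, with KRT5 and TP63 at 0 counts in all libraries. The 7 neuroendocrine markers summed to 151 to 223 CPM in 22Rv1, 7.04 to 11.7 CPM in LNCaP, and 46.8 and 54.4 CPM in PC3. Of these, ENO2 held 588 counts over the 14 libraries and CHGA 0. In bulk RNA, fewer cells with a transcript and less of it per cell cannot be told apart. Nothing in the labels ties the replicate libraries to separate cultures, although the study states biological replicates in general, so p-values measure the spread between these libraries.

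Of the 10 genes, 8 passed the low-count filter in LNCaP and 22Rv1, and KRT19 and KRT7 did not. All levels below are CPM scaled by TMM factors over the 14 libraries, in the order of replicates 1 to 3. They are not scaled by transcript length, which a 3′ tag count does not need, and different genes are not ranked against each other. Adjusted p-values are Benjamini-Hochberg values from edgeR's quasi-likelihood test over all 7086 genes tested, with 0.05 as the threshold.

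**Figure D1:**
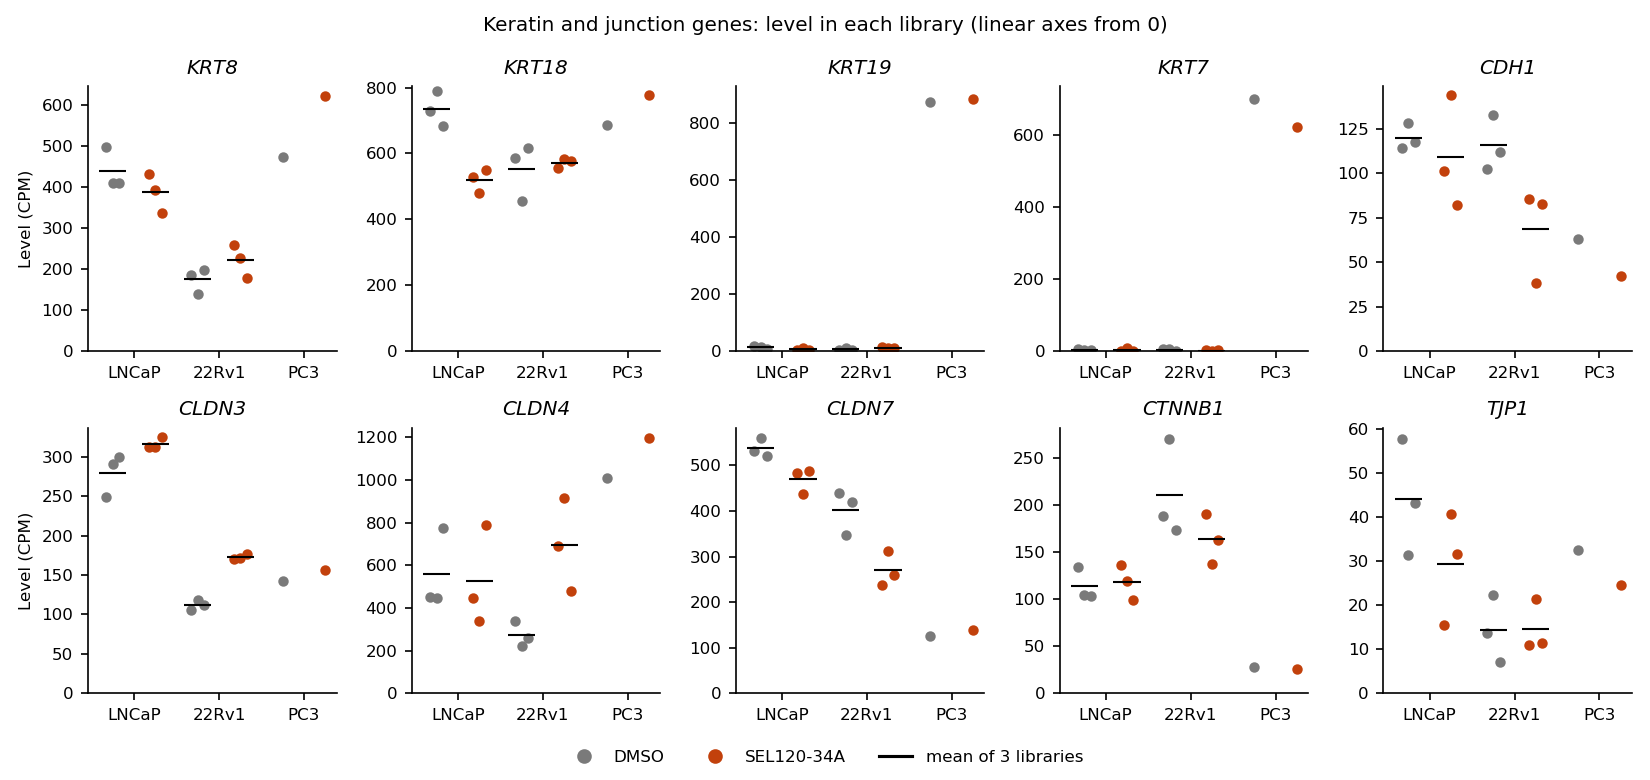
Level of each of the 10 genes in each of the 14 libraries, in CPM on linear axes that start at 0, with DMSO in grey and SEL120-34A in orange and the mean of 3 libraries as a bar. CLDN4 lay between 479 and 914 CPM in treated 22Rv1 and between 221 and 338 in its controls, and KRT19 and KRT7 were at 624 to 884 CPM in PC3 and at most at 18.3 in the other lines.

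The 3 claudin genes of the set changed in 22Rv1 and in both directions. With SEL120-34A, CLDN4 was 2.54-fold and CLDN3 1.56-fold higher, while CLDN7 was 1.50-fold lower. These were the 3 of 8 tested genes that changed in 22Rv1, 2 higher and 1 lower, where 5.70% of all tested genes changed (4.15% higher and 1.55% lower). Without SEL120-34A replicate 1 of 22Rv1, 1 of the 8 was called. The median log2 fold change of the 8 genes was 0.052, against 0.00 for all tested genes.

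CLDN4, a claudin that is abundant in many glandular epithelia, is a gene on chromosome 7 (ENSG00000189143, GRCh38 chr7:73799542-73832690, plus strand). In 22Rv1 it was at 338, 221 and 261 CPM with DMSO (172, 118 and 219 counts). With SEL120-34A it was at 689, 914 and 479 CPM (250, 213 and 168 counts). Every treated library was above every control library, and the treated libraries were also the more scattered (694 ± 218 against 273 ± 59.3 CPM, mean ± SD, n = 3). The log2 fold change was 1.34 (SE 0.22, adjusted p = 4.34e-05 by edgeR). It was 1.36 with all libraries thinned to 246063 counts and 1.32 without mitochondrial genes. On the deposited log2 values limma-trend gave an adjusted p of 0.0658, the sole alternative of 24 without the call.

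In LNCaP the same gene was at 451, 448 and 775 CPM with DMSO and at 448, 339 and 788 CPM with SEL120-34A. The groups overlapped throughout, and in both the third replicate was far above the other libraries. The log2 fold change was -0.048 (95% interval -0.53 to 0.43, adjusted p = 0.959 by edgeR). The difference between the lines in the CLDN4 response (LNCaP minus 22Rv1) was itself past the threshold, at -1.39 on the log2 scale (SE 0.30, adjusted p = 0.0129 by edgeR). CLDN4 was the only one of the 8 genes with such a difference, where 0.734% of all tested genes had one (0.466% in the same direction). Leaving out a library ended this call in 4 cases, with an adjusted p by edgeR of 0.101 (LNCaP DMSO replicate 3), 0.0574 and 0.0605 (LNCaP SEL120-34A replicates 1 and 2) and 0.0752 (22Rv1 SEL120-34A replicate 2). DESeq2 (adjusted p = 0.187), limma-trend (0.274) and a filter of at least 10 counts in every library (0.0551 by edgeR) did not call it either. The difference kept its sign in all 23 alternatives, from -1.82 to -1.04.

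CLDN3 lies in the same stretch of chromosome 7 (ENSG00000165215, chr7:73768997-73770270, minus strand), with 29271 bases between its gene and that of CLDN4. In 22Rv1 its level was 106, 118 and 112 CPM with DMSO and 171, 172 and 177 CPM with SEL120-34A. The groups did not overlap (112 ± 5.95 against 173 ± 3.24 CPM, n = 3). They rest on 54, 63 and 94 counts with DMSO and on 62, 40 and 62 with SEL120-34A. Counting error at such counts is wider than these SDs, so the SDs are no measure of precision. The log2 fold change was 0.64 (SE 0.17, adjusted p = 0.0166 by edgeR), and it was 0.99 after thinning and 0.62 without mitochondrial genes. The adjusted p was 0.0762 under scaling by library totals, where the median over all genes in 22Rv1 was -0.14, and 0.147 without the low-count filter. It was 0.0689 and 0.0733 without 22Rv1 DMSO replicate 1 or 3, and 0.0630 and 0.0523 without SEL120-34A replicate 1 or 2, all by edgeR.

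In LNCaP, CLDN3 was at 249, 291 and 299 CPM with DMSO and at 312, 312 and 325 CPM with SEL120-34A. The treated libraries were all above the controls, but the step was small, at a log2 fold change of 0.21 (95% interval -0.10 to 0.53), and did not pass the test (adjusted p = 0.525 by edgeR). The CLDN3 response did not differ detectably between the lines (log2 difference -0.43, 95% interval -0.93 to 0.07, adjusted p = 0.455 by edgeR). Among 7 other tested genes within 250 kb of the CLDN3 and CLDN4 pair, 1 rose in 22Rv1, the methyltransferase gene BUD23 (log2 fold change 0.57, adjusted p = 0.0302 by edgeR), and none changed in LNCaP. BUD23 was named after its value was seen.

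CLDN7, whose product is found at tight junctions and along lateral membranes, moved the other way (ENSG00000181885, chr17:7259903-7263983, minus strand). Its 22Rv1 levels were 439.8, 348 and 419 CPM with DMSO and 237, 313 and 259.6 CPM with SEL120-34A. All treated libraries were below all controls (270 ± 39.2 against 402 ± 48.0 CPM, n = 3). The log2 fold change was -0.58 (SE 0.14, adjusted p = 0.00976 by edgeR), and it was -0.68 after thinning and -0.60 without mitochondrial genes. Without 22Rv1 SEL120-34A replicate 1 the adjusted p was 0.118.

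In LNCaP, CLDN7 was at 531, 560.3 and 520.1 CPM with DMSO and at 483.5, 436 and 488 CPM with SEL120-34A. The treated libraries again lay below the controls, by a small margin (log2 fold change -0.16, 95% interval -0.46 to 0.14, adjusted p = 0.646 by edgeR). The CLDN7 gene overlaps ELP5 on the other strand and an unnamed coding gene on its own strand. Whether the counting used strand is not given in the sources used here, so the assignment of shared reads is uncertain.

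Within a library, the makeup of the claudin counts does not depend on how libraries are scaled to each other. In 22Rv1 with DMSO, CLDN7 gave 51.1 ± 1.59% of the CLDN3, CLDN4 and CLDN7 counts and CLDN4 gave 34.5 ± 3.29% (n = 3). With SEL120-34A the share of CLDN7 was 24.1 ± 3.69% and that of CLDN4 was 60.2 ± 6.89%. Neither share overlapped between the 22Rv1 groups. In LNCaP the CLDN4 share was 39.9 ± 7.61% with DMSO and 38.8 ± 9.33% with SEL120-34A, and CLDN4 was 79.0 and 80.2% of these counts in the DMSO and SEL120-34A libraries of PC3. These shares restate the counts above, so they were not tested again.

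**Figure D2:**
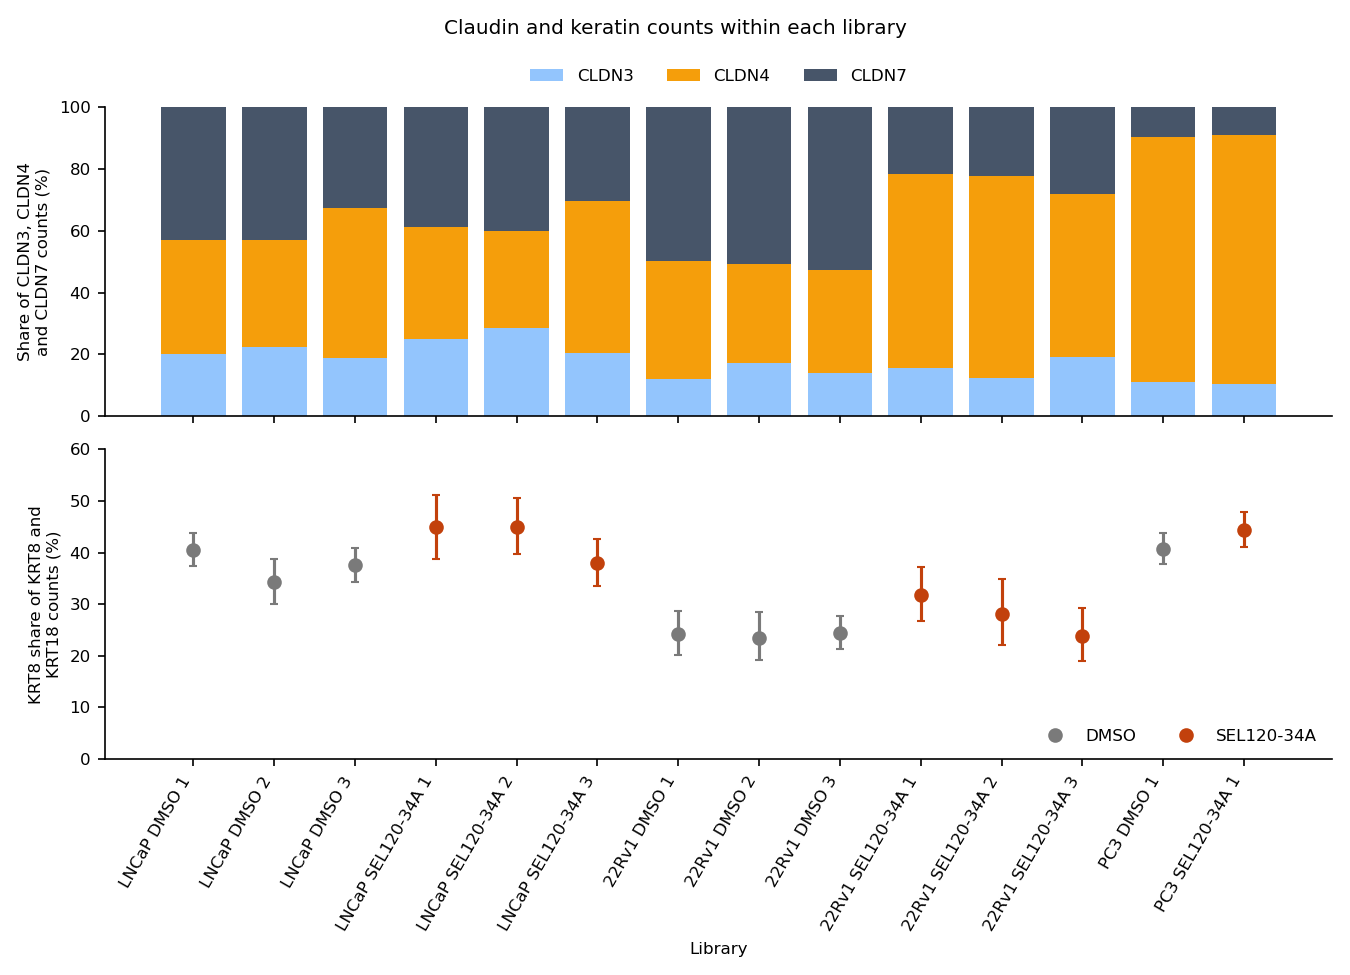
Top, share of the CLDN3, CLDN4 and CLDN7 counts (%) given by each gene in each library, as stacked bars. Bottom, KRT8 share of the KRT8 and KRT18 counts (%) with 95% Wilson score intervals, DMSO in grey and SEL120-34A in orange. The CLDN4 part of the bars is widest in PC3 (79.0 and 80.2%) and in treated 22Rv1 (60.2% on average), and the KRT8 share is lowest in 22Rv1 with DMSO (24.0% on average).

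The sequences before the transcription starts of the 3 claudin genes are shown because these genes encode related junction proteins and moved in different directions. They are the 250 bases upstream of the start that RefSeq lists (GRCh38.p14), each read 5′ to 3′ on the strand of its gene. The windows are chr7:73770271-73770520 (minus strand) for CLDN3, chr7:73830746-73830995 (plus strand) for CLDN4 and chr17:7262479-7262728 (minus strand) for CLDN7. Capitals mark 3 of 6 motifs searched on both strands, which do not overlap each other here: CAGGTG (an E-box that Snail and ZEB repressors bind), TGANTCA (AP-1) and GGGCGG (a GC box).
CLDN3: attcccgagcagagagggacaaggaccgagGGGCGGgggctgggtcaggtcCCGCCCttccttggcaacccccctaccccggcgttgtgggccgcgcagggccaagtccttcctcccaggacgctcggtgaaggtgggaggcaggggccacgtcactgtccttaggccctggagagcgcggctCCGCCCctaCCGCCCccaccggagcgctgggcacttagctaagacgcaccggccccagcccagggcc
CLDN4: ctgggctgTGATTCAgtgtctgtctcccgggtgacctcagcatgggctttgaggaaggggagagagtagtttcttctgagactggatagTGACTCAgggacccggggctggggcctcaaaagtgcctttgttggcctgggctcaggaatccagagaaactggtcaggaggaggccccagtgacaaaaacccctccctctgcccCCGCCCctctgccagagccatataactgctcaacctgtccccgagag
CLDN7: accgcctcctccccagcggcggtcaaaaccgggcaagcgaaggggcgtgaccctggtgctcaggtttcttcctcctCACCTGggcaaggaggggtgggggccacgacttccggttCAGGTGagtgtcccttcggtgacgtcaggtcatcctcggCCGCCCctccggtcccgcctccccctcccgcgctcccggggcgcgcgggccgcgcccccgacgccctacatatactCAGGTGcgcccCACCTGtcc

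CLDN7 held the E-box 4 times, at 174, 135, 20 and 9 bases before the start, and neither CLDN3 nor CLDN4 held it in this window. At least 1 E-box occurred in 17.5% of all 35116 such windows, and at least 4 in 0.122%. The cut of 4 equals the number found in CLDN7, and repeats of the other motifs were not counted over the windows. The 0.122% is therefore a description and not a test of rarity. CLDN4 held the AP-1 motif at 242 and 161 bases before its start, a motif found in 6.57% of windows. The GC box, found in 42.6% of windows, occurred 4 times in CLDN3 and once each in CLDN4 and CLDN7. The other motifs were the promoter box TATAAA, the ETS core CCGGAA and the Grainyhead motif AACNGGTT. Of these the ETS core, found in 14.5% of windows, occurred in CLDN7 at 143 bases before the start, and the rest had no match in the 3 windows. These are matches of letters, and binding was not measured. Summed over all LNCaP and 22Rv1 libraries, the repressor genes ZEB1 and ZEB2 had 0 counts, SNAI1 had 9 and SNAI2 had 5. Whether such repressors act on CLDN7 in these cells was not tested.

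Of the keratin pair, KRT18 changed, in LNCaP. KRT18 (ENSG00000111057, chr12:52948871-52952906, plus strand) fell there by 0.46 on the log2 scale and was the only 1 of the 8 genes to change in LNCaP, where 2.77% of all tested genes changed (0.776% lower and 1.99% higher). The median log2 fold change of the 8 genes was -0.13, against 0.00 for all tested genes. KRT18 was at 729.7, 788 and 684 CPM with DMSO and at 530.2, 479.8 and 551 CPM with SEL120-34A.

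All LNCaP controls were above all treated libraries for KRT18 (734 ± 52.3 against 520.4 ± 36.7 CPM, n = 3; SE of the log2 fold change 0.13, adjusted p = 0.0374 by edgeR). This was a call near the threshold. The adjusted p was 0.0822 by DESeq2, 0.0850 by limma-trend and 0.118 by edgeR after thinning. With a library left out it was 0.0913, 0.174 and 0.0748 (LNCaP DMSO replicates 1, 2 and 3), 0.0882 and 0.229 (LNCaP SEL120-34A replicates 1 and 2) and 0.0507 (22Rv1 SEL120-34A replicate 1), all by edgeR. Without mitochondrial genes the log2 fold change was -0.46. The direction was the same in all 24 alternatives, from -0.55 to -0.41.

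In 22Rv1, KRT18 was at 585, 457 and 615 CPM with DMSO and at 557, 584 and 576 CPM with SEL120-34A. The treated libraries fell inside the range of the controls (log2 fold change 0.058, 95% interval -0.24 to 0.36, adjusted p = 0.864 by edgeR). The KRT18 response did not pass the test of a difference between the lines (log2 difference -0.52, 95% interval -0.94 to -0.10 before adjustment, adjusted p = 0.233 by edgeR).

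KRT8, the partner of KRT18 (ENSG00000170421, chr12:52897187-52949954, minus strand), passed the test in neither line. In LNCaP it was at 499, 411 and 411 CPM with DMSO and at 433, 393 and 338 CPM with SEL120-34A. The 22Rv1 levels were 186.5, 140.4 and 199 CPM with DMSO and 259, 227.5 and 179.7 CPM with SEL120-34A. The groups overlapped in both lines, with log2 fold changes of -0.17 (95% interval -0.51 to 0.17) in LNCaP and 0.34 (-0.06 to 0.74) in 22Rv1 (adjusted p = 0.690 and 0.277 by edgeR).

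The KRT8 share of the KRT8 and KRT18 counts was 37.5 ± 3.16% in LNCaP with DMSO and 42.7 ± 4.03% with SEL120-34A. In 22Rv1 it was 24.0 ± 0.483% and 27.9 ± 3.99%. Treated and control ranges overlapped within each line, while the ranges of the lines did not. The KRT8 and KRT18 genes overlap by 1084 bases on opposite strands in the annotation. The table also held 119 pseudogene rows named for this pair, with 180 counts in 51 rows for KRT8 and 375 counts in 68 rows for KRT18 over all libraries, which was 3.82 to 13.2% and 5.65 to 12.7% of the parent gene's counts. Adding them to the parents left the KRT18 call in LNCaP in place (log2 fold change -0.44, adjusted p = 0.0429 by edgeR).

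CDH1, the gene of E-cadherin (ENSG00000039068, chr16:68737292-68835537, plus strand), was lower in treated 22Rv1 without reaching the threshold. Its 22Rv1 levels were 102, 133 and 112 CPM with DMSO and 85.4, 38.6 and 82.7 CPM with SEL120-34A. The treated libraries were all below the controls, with replicate 2 (9 counts) lowest. The log2 fold change was -0.66 (95% interval -1.20 to -0.13 before adjustment, adjusted p = 0.0837 by edgeR), and scaling by library totals gave an adjusted p of 0.0403. In LNCaP, CDH1 was at 114, 128 and 117 CPM with DMSO and at 101, 144 and 82.4 CPM with SEL120-34A, with overlapping groups (log2 fold change -0.11, 95% interval -0.59 to 0.38, adjusted p = 0.893 by edgeR).

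CTNNB1 (ENSG00000168036, chr3:41194741-41260096, plus strand) was at 134, 105 and 103 CPM in LNCaP with DMSO and at 136, 119 and 99.3 CPM with SEL120-34A. The 22Rv1 libraries had 188.5, 269.5 and 173 CPM with DMSO and 190.2, 137 and 163 CPM with SEL120-34A. Groups overlapped in both lines, with log2 fold changes of 0.040 (95% interval -0.43 to 0.51) and -0.32 (-0.74 to 0.11) and adjusted p-values of 0.965 and 0.362 by edgeR.

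TJP1 (ENSG00000104067, chr15:29699367-29968915, minus strand) had the fewest counts of the tested members. It was at 57.8, 31.4 and 43.3 CPM in LNCaP with DMSO and at 15.6, 40.7 and 31.7 CPM with SEL120-34A, and between 7.16 and 22.5 CPM in all 22Rv1 libraries. With 4 to 12 counts per 22Rv1 library, its log2 fold change there was known only to within -1.18 to 1.27. In LNCaP it was -0.54 (95% interval -1.34 to 0.25, adjusted p = 0.516 by edgeR).

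**Figure D3:**
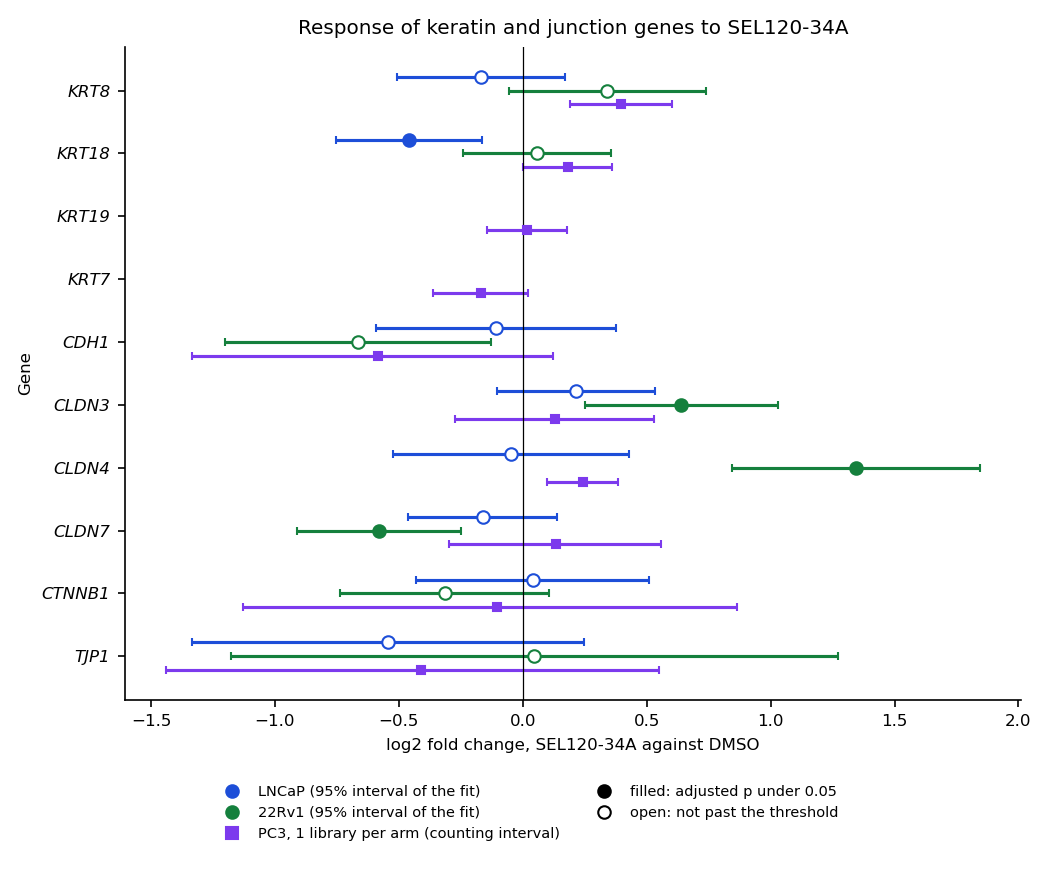
Log2 fold change of each gene, SEL120-34A against DMSO, in LNCaP (blue) and 22Rv1 (green) with 95% intervals of the edgeR fit, and in PC3 (purple) as the ratio of 1 library per arm with a 95% counting interval. Filled circles passed an adjusted p of 0.05 and are KRT18 in LNCaP (-0.46) and CLDN4 (1.34), CLDN3 (0.64) and CLDN7 (-0.58) in 22Rv1.

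Counted by separation alone, 3 of the 8 genes had no overlap between treated and control libraries in LNCaP (KRT18 and CLDN7 lower, CLDN3 higher), where 19.4% of all tested genes had none. In 22Rv1 it was 4 of 8 (CLDN3 and CLDN4 higher, CLDN7 and CDH1 lower), where 23.0% had none.

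The 7 wider lists of other keratins, tight junction, adherens junction and desmosome genes, epithelial identity genes, mesenchymal genes and beta-catenin pathway genes held 126 genes, of which 51 were tested. In LNCaP none of the 51 changed by edgeR, DESeq2 or limma-trend, where edgeR called 2.77% of all tested genes. Of the 51, 6 had an unadjusted p under 0.05 by edgeR there, where 13.5% of all tested genes did. In 22Rv1 1 of the 51 changed by each of the 3 tools, where edgeR called 5.70% of all tested genes. In that line 8 had an unadjusted p under 0.05 by edgeR, against 19.1% of all tested genes. None of the 51 differed in response between the lines by any of the tools, where edgeR called 0.734% of all tested genes. For that difference 6 had an unadjusted p under 0.05 by edgeR, against 11.4% of all tested genes. Of the 51, 45 had more than 3 counts in some library of every group, with a median log2 fold change of 0.050 in LNCaP and -0.048 in 22Rv1 (0.00 for all such genes in each line).

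The gene that changed was ELF3, an ETS family transcription factor of epithelial cells. In 22Rv1 it was at 163, 140.4 and 159.8 CPM with DMSO and at 367, 309 and 234 CPM with SEL120-34A. All treated libraries were above all controls (log2 fold change 0.98, SE 0.16, adjusted p = 7.45e-05 by edgeR), and it was called in all 24 alternatives. In LNCaP, ELF3 was at 26.8, 34.0 and 25.2 CPM with DMSO and at 46.8, 37.9 and 33.8 CPM with SEL120-34A. Its log2 fold change there was 0.49 (95% interval -0.22 to 1.20, adjusted p = 0.510), and the difference between the lines did not pass the test (adjusted p = 0.626, both by edgeR).

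There were 8 other tight junction genes tested. Of the 7 with more than 3 counts in some library of every group, the log2 fold changes ran from -0.69 to 0.070 in 22Rv1 with a median of -0.39, and from -0.37 to 0.86 in LNCaP with a median of 0.089. None of these passed the test in either line. The 9 adherens junction partners and 6 desmosome genes that met the same count rule had medians of -0.14 and 0.18 in 22Rv1 and of -0.011 and 0.27 in LNCaP.

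**Figure D4:**
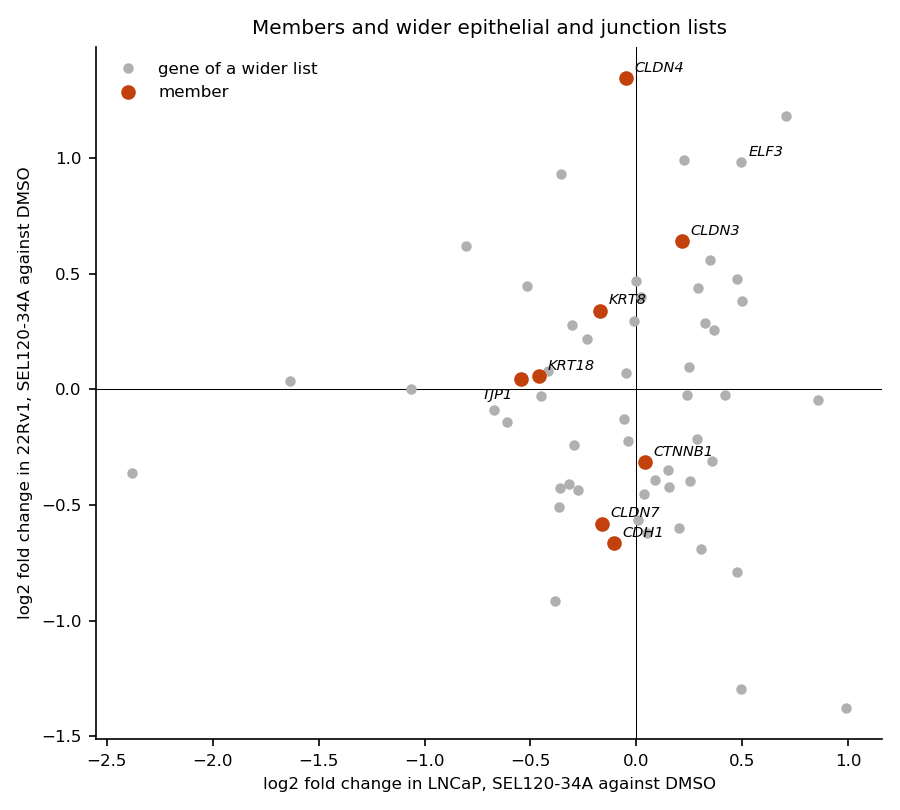
Log2 fold change with SEL120-34A in 22Rv1 (vertical) against LNCaP (horizontal), with the 8 tested members in orange and the 51 tested genes of the wider lists in grey. CLDN4 (1.34), CLDN3 (0.64) and ELF3 (0.98) are on the upper side of the 22Rv1 axis and CLDN7 (-0.58) on the lower, and no other gene of the wider lists passed the test in either line.

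With DMSO alone the lines differed in most of these genes. Between the DMSO libraries, 7 of the 8 tested genes differed, 6 lower and 1 higher in 22Rv1, where 49.0% of all tested genes differed (24.0% lower and 25.0% higher). Without adjustment, 54.4% of all tested genes had a p under 0.05. The DMSO libraries of the lines did not overlap in the same 7 genes, against 56.4% of all tested genes. The median log2 difference (22Rv1 minus LNCaP) of the 8 was -0.73, against 0.03 for all tested genes. This comparison and the 22Rv1 treatment comparison share the 3 DMSO libraries of 22Rv1.

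TJP1 had the widest gap, at 44.2 ± 13.2 CPM in LNCaP and 14.5 ± 7.68 CPM in 22Rv1 (log2 difference -1.75, adjusted p = 8.92e-05 by edgeR). KRT8 (440.2 ± 50.6 against 175 ± 30.9 CPM) and CLDN3 (279.7 ± 26.7 against 112 ± 5.95 CPM) were each lower by 1.32 (adjusted p = 1.29e-09 and 7.50e-10 by edgeR). CLDN4 was at 558 ± 188 against 273 ± 59.3 CPM (log2 difference -1.05, adjusted p = 6.40e-05 by edgeR). Of the treated 22Rv1 libraries, 2 of 3 lay inside the CLDN4 range of untreated LNCaP and none inside that of untreated 22Rv1.

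CLDN7 and KRT18 were lower in 22Rv1 by smaller steps, -0.42 and -0.40 on the log2 scale (adjusted p = 0.00605 and 0.00611 by edgeR). Both calls were lost with library totals (0.151 and 0.165), a scaling that moved the median of all genes to 0.24. The CLDN7 call was also lost after thinning (log2 difference -0.27, adjusted p = 0.129), and that of KRT18 without 22Rv1 DMSO replicate 2 (0.0659), all by edgeR. CTNNB1 was the gene that was higher in 22Rv1, at 210 ± 51.9 CPM against 114 ± 17.2 in LNCaP (log2 difference 0.85, adjusted p = 8.94e-05 by edgeR). CDH1 was at 120 ± 7.41 CPM in LNCaP and 116 ± 15.7 CPM in 22Rv1 (log2 difference -0.046, 95% interval -0.48 to 0.39, adjusted p = 0.859 by edgeR).

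Among the wider lists, 30 of the 51 tested genes differed between the DMSO libraries of the lines, 14 higher and 16 lower in 22Rv1. Of all tested genes 49.0% differed (25.0% higher and 24.0% lower). The count of 30 holds genes nearly absent from 1 line, which passed the filter through the other, so their difference was built in. Among them were NECTIN3 (summed DMSO counts of 2 in LNCaP and 51 in 22Rv1) and CDH2 (1 and 45). RAB25, an epithelial identity gene, had 217 and 4. Of the 51, 45 had more than 3 counts in some library of every group, and calls were not counted for these alone. Of the 24 genes of the beta-catenin list 7 were tested, and 1 of them, LGR5, had 0 counts in every LNCaP library and passed the filter through 22Rv1 alone. The other 6 were higher in 22Rv1, among them the cell cycle and Wnt target gene CCND1 (log2 difference 2.05), the Wnt transcription factor gene LEF1 (1.89) and the kinase gene GSK3A (1.81). Of 6 desmosome genes 3 were lower and the other 3 did not pass the test, with PKP4 (-1.40), DSG2 (-0.70) and PERP (-0.58) the ones that did. Of 15 epithelial identity genes 6 were lower and 2 higher, the latter ELF3 (2.46) and the splicing factor gene ESRP1 (1.32). The list genes named for this contrast were picked after their values were seen.

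PC3 had 1 library per arm, so its values have no replicate check, and the intervals cover counting error only. Among the 10 genes, it differed from the other lines most in KRT19 and KRT7, keratins of many ductal epithelia. KRT19 (ENSG00000171345, chr17:41523617-41528308, minus strand) had 802 and 504 counts in the DMSO and SEL120-34A libraries of PC3 (873 and 884 CPM), against 1 to 13 counts in each LNCaP library and 3 to 7 in each 22Rv1 library. KRT7 (ENSG00000135480, chr12:52232520-52252186, plus strand) had 645 and 356 counts in PC3 (702 and 624 CPM) and 0 to 4 in every other library. A count of 0 allows up to 3 counts, or 12.2 CPM by library total in the shallowest 22Rv1 library.

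Against the summed DMSO libraries of LNCaP, the PC3 DMSO library was 60.7 times higher in KRT19 (95% counting interval 41.1 to 93.5) and 159 times in KRT7 (80.0 to 369). Against 22Rv1 the ratios were 117 (69.6 to 216) and 165 (83.3 to 384). KRT81, a hair keratin gene, followed the same order, with 658 and 558 counts in PC3 and 0 to 4 in each other library. The KRT7 gene overlaps KRT86 on its own strand in the annotation, and KRT86 had 17 and 12 counts in PC3 and 0 elsewhere.

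PC3 was also low in other members. CTNNB1 had 26 and 15 counts (28.3 and 26.3 CPM), and the DMSO library was 4.09 times below LNCaP (2.71 to 6.40) and 7.23 times below 22Rv1 (4.86 to 11.2). CLDN7 was at 126 and 139 CPM, 4.22 times below LNCaP (3.48 to 5.16) with DMSO, and CDH1 at 63.1 and 42.1 CPM, 1.88 times below LNCaP (1.40 to 2.55). CTNNA1, the gene of alpha-catenin, which links the cadherin complex to actin, had 1 count in each PC3 library and 21 to 170 in every other library. CLDN4 was higher than in any other library, at 1010 and 1194 CPM with DMSO and SEL120-34A.

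The mesenchymal filament gene VIM was at 1262 and 1110 CPM in PC3 and at 8.27 to 51.5 CPM elsewhere. KRT8 and KRT18 in the PC3 DMSO library (473 and 687 CPM) were close to the LNCaP DMSO means of 440.2 and 734 CPM. The orders of the DMSO levels over the lines thus differed from gene to gene: KRT8 was lowest in 22Rv1, CDH1, CLDN7 and CTNNB1 were lowest in PC3, and CLDN4 was highest in PC3. Genes of the wider lists given for PC3 were chosen after their values were seen.

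With SEL120-34A, the PC3 log2 ratios of the 10 genes had a median of 0.07, against 0.01 over 8204 genes with at least 20 counts. KRT8 was higher in the treated library by 0.40 (95% counting interval 0.19 to 0.60), CLDN4 by 0.24 (0.10 to 0.39) and KRT18 by 0.18, with an interval that started at 0.00 and ended at 0.36. The ratios of KRT19 (0.02), KRT7 (-0.17), CDH1 (-0.59), CLDN3 (0.13), CLDN7 (0.13), CTNNB1 (-0.11) and TJP1 (-0.41) had counting intervals that spanned 0. KRT6A, a stress keratin gene, had 7 counts with DMSO and 31 with SEL120-34A in PC3 (log2 ratio 2.83, 1.62 to 4.26), and 0 in all libraries of the other lines.

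**Figure D5:**
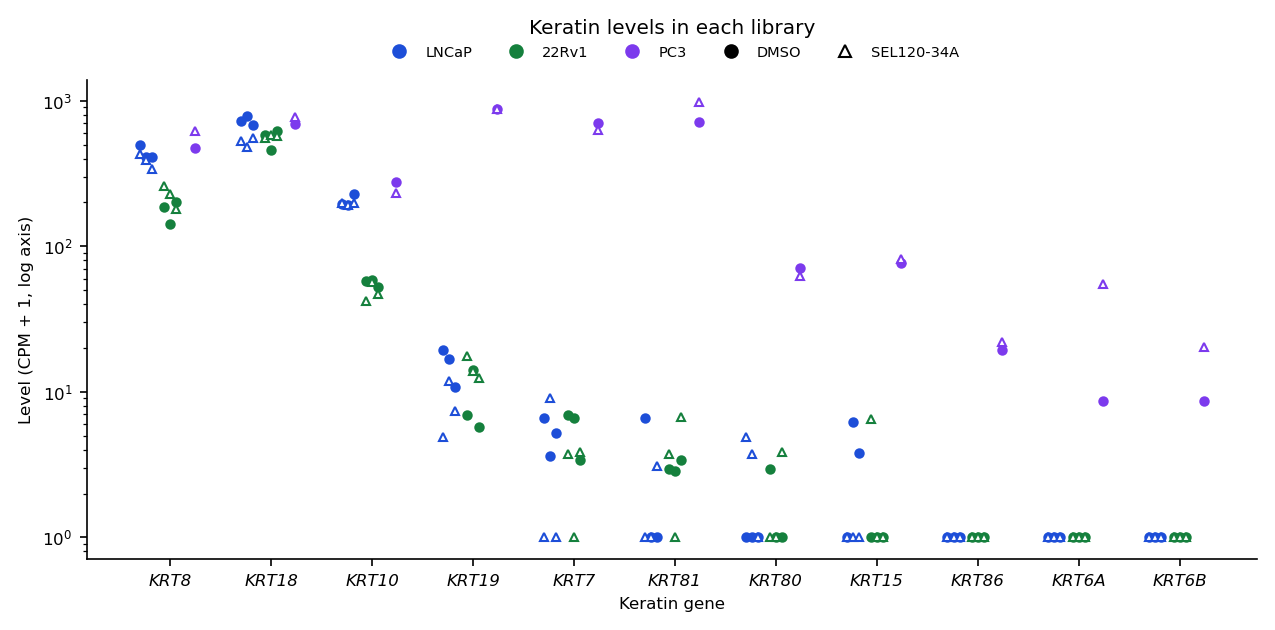
Level of 11 keratin genes in each library (CPM + 1, log axis), coloured by line, with DMSO as filled circles and SEL120-34A as open triangles. KRT8 and KRT18 were present in all lines, whereas KRT19, KRT7 and KRT81 were at 624 to 978 CPM in PC3 and at most at 18.3 CPM in LNCaP and 22Rv1.

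The genes whose levels ran most alike with KRT8 over the 14 libraries, among 4275 genes with a mean of at least 20 counts, were ACOT9 (Pearson r of log2 CPM 0.96), GORASP2 (0.95) and IFITM3 (0.95). For KRT18 they were TUBB (0.87), AURKAIP1 (0.86) and TK1 (0.85), and for CDH1 HDLBP, EIF4G1 and USP22 (0.92 each). The libraries fall into 3 lines and share depth and treatment within them, so these values describe the order of the lines more than that of single libraries.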

How the data were processed

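The data were 14 BRB-seq libraries. The authors aligned and counted reads with STARsolo (version not given in the sources used here) on GRCh38.p13 with GENCODE release 43, and deposited raw counts per gene for 62703 genes and log2 CPM for 9638 genes. Whether molecular identifiers were collapsed is not given in the sources used here, so intervals and floors cover counting error only.

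Groups came from the labels. Counts of the 12 LNCaP and 22Rv1 libraries were fitted with edgeR 4.0.16 in R 4.3.3 (4 group means, TMM, the tool's low-count filter, quasi-likelihood F-test, 8 residual degrees of freedom, biological coefficient of variation 11.1%), and the script was tested on simulated data. PC3 had 1 library per arm and was given as counts and ratios. Log2 values used for likeness had a prior count of 2. Coordinates came from GENCODE release 44 and upstream windows from RefSeq, which listed 6 of the 10 genes. The 10 genes, the wider lists and the tests were chosen with earlier results of these data known. All members are named, with list genes past the threshold with SEL120-34A. The 24 alternatives covered scaling, filtering, thinning, DESeq2 1.42.0, limma-trend 3.58.1 on the deposited log2 values, pseudogene counts, and each library left out. Removal of mitochondrial genes was added after seeing the data. No pair of replicate libraries agreed within counting error (chi-square per degree of freedom 1.43 to 3.02), so none was counted as a duplicate.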

Additional observations from a re-analysis of the deposited data

Results flagged for a closer look

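The response of CLDN4 to SEL120-34A differed between the lines in the test of that difference, with a log2 difference (LNCaP minus 22Rv1) of -1.39 (adjusted p = 0.0129 by edgeR over all tested genes). CLDN4 rose in 3 of 3 treated 22Rv1 libraries relative to every control, and in LNCaP the groups overlapped. A full separation of the 22Rv1 groups, in either direction, was seen in 23.0% of all tested genes. The call of a difference between the lines was lost in 7 of 23 alternatives. Among these were DESeq2 (adjusted p = 0.187), limma-trend (0.274) and edgeR without LNCaP DMSO replicate 3 (0.101).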

How the results depend on the processing

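The number of genes called with SEL120-34A in LNCaP was 196 and came to 122 with at least 10 counts in every library, 109 after thinning to the smallest total, 90 with DESeq2, 41 with limma-trend, and 87 to 239 with a library left out. In 22Rv1 it was 404 and came to 260 without a filter, 242 with DESeq2, 201 with limma-trend, and 158 to 446 with a library left out. For the difference between the lines it was 52 and came to 29 with at least 10 counts, 32 after thinning, 5 with limma-trend, and 24 to 57 with a library left out. Between the DMSO libraries it was 3473 and came to 1503 with at least 10 counts and 2036 after thinning, settings that test fewer genes or fewer counts. Scaling by library totals changed the split of higher and lower calls from 141 and 55 to 99 and 90 in LNCaP, from 294 and 110 to 144 and 231 in 22Rv1, and from 1772 and 1701 to 2362 and 1211 between the lines. The members called in LNCaP were 0 after thinning, with DESeq2 and with limma-trend, and 0 to 1 with a library left out. In 22Rv1 they were 1 to 3 with a library left out. For the difference between the lines they were 0 with at least 10 counts, DESeq2 or limma-trend, and 0 to 1 with a library left out.

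Some member values that did not pass the test in their comparison changed sign under other settings. In LNCaP, CDH1 was at 0.13 and CLDN3 at -0.0055 after thinning, and CTNNB1 at -0.050 with library totals, -0.034 without a filter and -0.047 after thinning. In 22Rv1, KRT18 was at -0.090 with library totals, -0.0058 without a filter and -0.022 with at least 10 counts, and TJP1 at -0.10 with library totals and -0.011 without a filter. Between the DMSO libraries CDH1 was at 0.17 with library totals. With a library left out, the ranges were -0.38 to 0.11 (CDH1), -0.50 to 0.28 (CLDN4) and -0.068 to 0.19 (CTNNB1) in LNCaP, -0.076 to 0.13 (KRT18) and -0.40 to 0.49 (TJP1) in 22Rv1, and -0.14 to 0.044 (CDH1) between the DMSO libraries. The cause was not tested.

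Same-numbered libraries deviated together weakly at most (r -0.03 to 0.16, over 0.1 in 2 of 6 pairs, both in LNCaP), so the numbers were taken as names. With a replicate block within each line the calls were 275 in LNCaP, 479 in 22Rv1 and 77 for the difference. No member's call changed in these comparisons. Between the DMSO libraries, the blocked fit compared the baseline replicate of each line, not the line means. The CLDN4 log2 difference was -0.61 in that fit and -1.05 without the block. Its 2311 calls cannot be read as a check of the difference between the lines. The same holds for KRT18 and CLDN7, which were not called in it (adjusted p = 0.0805 and 0.0783 by edgeR). Genes with few counts, TJP1 first, limit what these depths can show.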
